A study of Mus musculus with 21 samples.

Results

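The collagen genes were followed across 21 RNA-sequencing libraries of mouse heart ventricle. The family was taken as every gene of the deposited table whose symbol begins with Col and a digit, which gave 39 of 14732 symbols. Of these 39, 38 encode collagen chains, and the other one, Col4a3bp, encodes a ceramide transporter and was kept out of every count below. Reads of 27 of the 38 collagens were frequent enough to be tested, and 11 were not.

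The hearts came from male mice aged 2 months with a knockout (KO/Y) or an intact (WT/Y) copy of Taz on their only X chromosome, on 3 genetic backgrounds. Taz encodes tafazzin, the mitochondrial enzyme that remodels cardiolipin and that is mutated in Barth syndrome, a cardiomyopathy. There were 4 BL6J KO and 4 BL6J WT libraries, 3 AJ-F1 KO and 4 AJ-F1 WT libraries, and 3 CAST-F1 KO and 3 CAST-F1 WT libraries, with littermates as WT. BL6J is the C57/J strain of the design text, and F1 marks offspring of a cross whose other parent is not given in the sources used here. The labels do not say how the KO allele was made or in which cells it acts. They also do not say that each library is a separate animal, so p-values measure the spread between libraries.

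Libraries held 3848172 to 10738130 reads, of which 7567 to 23416 fell on collagens. Levels are given in CPM, the usual depth-scaled read count of a gene, after TMM scaling between libraries. Taz itself was at 1.07 to 6.07 CPM in the KO libraries and at 36.5 to 61 CPM in the WT libraries, so the level of Taz matched the label in all 21. Myh6, the myosin heavy chain that defines heart muscle cells, and the defining markers Pdgfra of fibroblasts, Pecam1 of endothelium, Myh11 of smooth muscle and Csf1r of macrophages were above 0 in every library. In whole-tissue RNA of this kind, fewer cells of a type and less RNA per cell cannot be told apart.

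Collagens are built from 3 chains wound into a triple helix. Fibrillar collagens such as types I and III are made in the heart mainly by fibroblasts and give the wall its tensile strength, while type IV collagen forms the sheet-like basement membrane around heart muscle cells and capillaries. Beaded filament collagen (type VI) links fibrils to cells, and the fibril-associated collagens known as FACIT decorate fibril surfaces. The network collagen type VIII forms lattices around vessels, the multiplexins (types XV and XVIII) belong to basement membrane zones, and transmembrane collagens are anchored in the cell surface. A rise of fibrillar collagen RNA is a usual feature of a scarring heart.

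Basement membrane collagen made up most collagen RNA in all 6 groups. Per kilobase of exon, Col4a1 and Col4a2, the chains of the common type IV network, ranked first and second of the 27 tested genes in each group, with group means of 76.3 to 125 and of 60.3 to 97.4 CPM per kilobase. Col15a1, a multiplexin of muscle and capillary basement membranes, held rank 3 or 4, at 16.0 to 25.5 CPM per kilobase. Col6a1, the type VI α1 chain, had group means of 12.5 to 25.7 CPM per kilobase and held rank 3 to 5, above Col15a1 in BL6J WT and AJ-F1 WT hearts. Among fibrillar genes the highest were Col1a1, the main chain of type I collagen, at 10.3 to 20.5 CPM per kilobase, and Col3a1, the type III chain, at 9.10 to 15.2 CPM per kilobase. Col7a1 and Col12a1 stood at the bottom of the order by their mean over groups, at 0.0269 to 0.251 and at 0.0456 to 0.136 CPM per kilobase. Exon length was the union over all annotated transcripts, so genes with many transcript forms read lower on this scale.

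**Figure D1:**
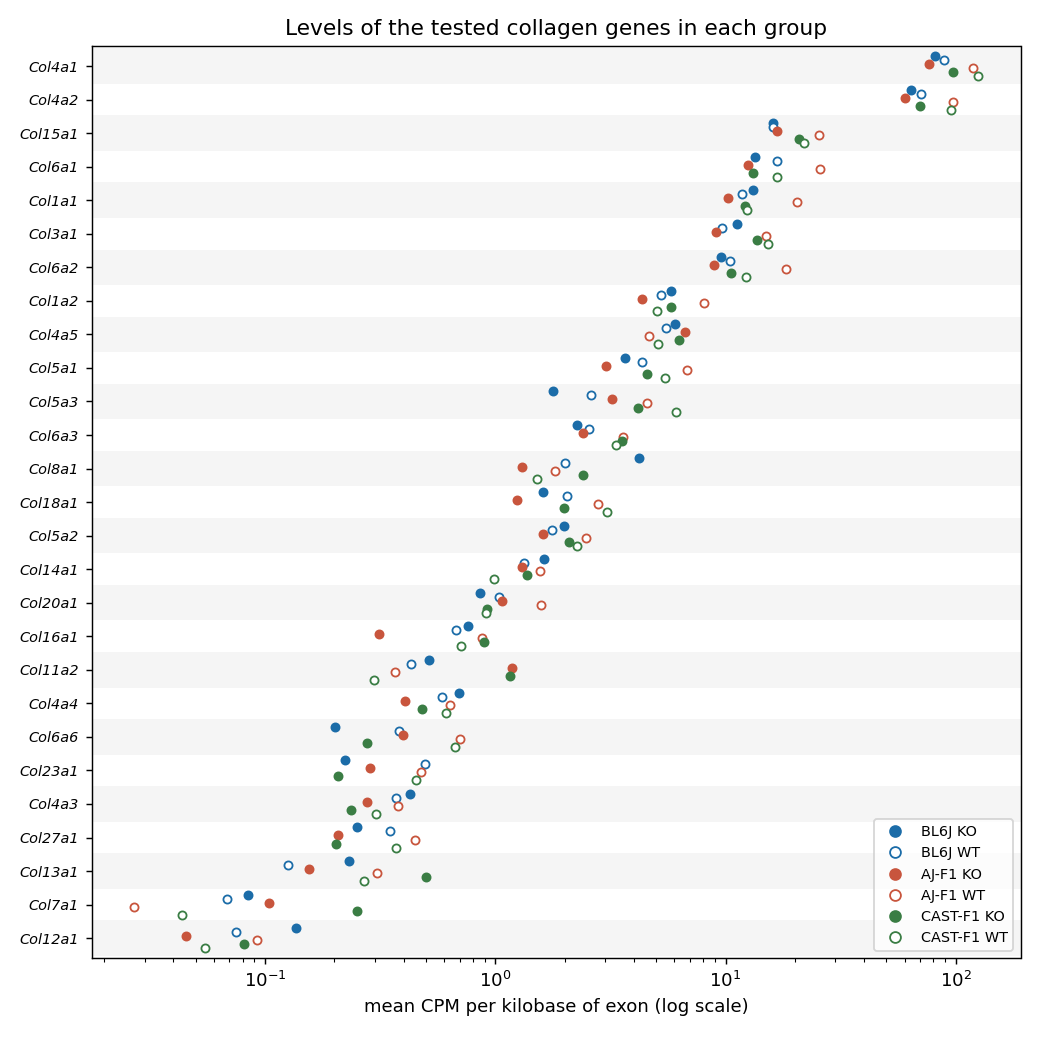
Mean level of each tested collagen gene in CPM per kilobase of exon (log axis) in the 6 groups, with genes ordered by their mean over groups. Col4a1 and Col4a2 lie above every other collagen in all groups, and the AJ-F1 KO point is the lowest of the 6 for 14 of the 27 genes.

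The share of summed collagen CPM that came from basement membrane collagens was 61.4% in BL6J KO and 63.7% in BL6J WT hearts, 63.3% in AJ-F1 KO and 60.1% in AJ-F1 WT hearts, and 61.7% in CAST-F1 KO and 66.1% in CAST-F1 WT hearts. Fibrillar collagens held 19.2% in BL6J KO and 17.2% in BL6J WT hearts, 17.6% in AJ-F1 KO and 19.2% in AJ-F1 WT hearts, and 19.1% in CAST-F1 KO and 16.8% in CAST-F1 WT hearts. The order of these classes was thus the same in the 6 groups, and Col4a1 alone held 33.8% to 38.3%. The per-library ratio of summed fibrillar to summed basement membrane CPM was 0.319 ± 0.0649 in BL6J KO (SD, n = 4) and 0.270 ± 0.0612 in BL6J WT hearts (n = 4). It was 0.279 ± 0.0104 in AJ-F1 KO (n = 3) and 0.316 ± 0.0350 in AJ-F1 WT hearts (n = 4), and 0.311 ± 0.0475 in CAST-F1 KO and 0.247 ± 0.0451 in CAST-F1 WT hearts (n = 3 each). The ranges of KO and WT libraries overlapped in each background.

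The partner chains of type IV and of type I collagen had similar ratios in all groups. The ratio of Col4a1 to Col4a2 per kilobase averaged 1.26 ± 0.10 in BL6J KO and 1.27 ± 0.0607 in BL6J WT hearts, 1.26 ± 0.0853 in AJ-F1 KO and 1.22 ± 0.0508 in AJ-F1 WT hearts, and 1.40 ± 0.0413 in CAST-F1 KO and 1.30 ± 0.0639 in CAST-F1 WT hearts (SD). These genes start head to head on chromosome 8 of GRCm38, Col4a1 at base 11312826 on the minus strand and Col4a2 at base 11312805 on the plus strand, so their annotated spans share 22 bases. Whether strand was used in counting is not given in the sources used here, and reads in the shared bases cannot be told apart without it. The ratio of Col1a1 to Col1a2 per kilobase averaged 2.26 ± 0.413 in BL6J KO and 2.23 ± 0.326 in BL6J WT hearts, 2.36 ± 0.205 in AJ-F1 KO and 2.45 ± 0.411 in AJ-F1 WT hearts, and 2.08 ± 0.118 in CAST-F1 KO and 2.37 ± 0.382 in CAST-F1 WT hearts. No test was run on these ratios. Their size depends on the exon lengths used, 6563 bases for Col1a1 and 12426 bases for Col1a2. In CPM, without division by length, Col1a1 and Col1a2 averaged 86.7 and 71.7 in BL6J KO hearts. They averaged 77.7 and 65.0 CPM in BL6J WT hearts, so the ratios per kilobase are not a measure of chain proportions.

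Most collagens that passed the test in a KO comparison were lower, and all of those were in AJ-F1 hearts. A gene is called here where edgeR's quasi-likelihood test gave a Benjamini-Hochberg adjusted p under 0.05 over all 12333 genes tested, and fold changes are log2 of KO over WT with their standard error (SE). In BL6J hearts 1 of 27 collagens was called higher and 0 lower, where 12.8% of all genes tested were called higher and 9.51% lower. In AJ-F1 hearts 2 were called higher and 12 lower, against 12.9% and 15.7% of all genes tested. In CAST-F1 hearts 2 were called higher and 0 lower, against 10.7% and 9.59% of all genes tested (20.3% in either direction). No collagen was called lower, and none higher, in all 3 backgrounds, where 4.77% and 5.99% of all genes tested were. The median log2 fold change over the 27 collagens was 0.14 in BL6J, -0.69 in AJ-F1 and -0.12 in CAST-F1 hearts, beside medians over all genes tested of 0.0072, 0.011 and -0.016. Without CAST-F1 WT replicate 3 the CAST-F1 median was 0.29. The BL6J median was -0.016 without BL6J KO replicate 1, -0.013 with BL6J libraries fitted alone and -0.0052 with no filter on low counts, and the AJ-F1 median stayed between -0.86 and -0.62 under the 28 settings run. Each of these medians covers the collagens kept under its setting. With BL6J libraries fitted alone 23 of the 27 were kept, and with no filter all 38 collagens entered, so the set of genes changed too. At an unadjusted p under 0.05, edgeR had 3 collagens in BL6J hearts (1 higher and 2 lower), beside 33.1% of all genes tested, and 7 in CAST-F1 hearts (3 higher and 4 lower), beside 32.1%. DESeq2 called 0 lower in BL6J hearts and 1 lower in CAST-F1 hearts, Col6a6 (adjusted p = 0.0375).

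The counts depended on single libraries. The 12 lower calls in AJ-F1 hearts became 6 without AJ-F1 KO replicate 3, and 4 when AJ-F1 libraries were fitted alone. The share of all genes tested that was called in AJ-F1 hearts was smaller in those fits too, at 28.5% in the fit of all libraries, 17.1% without AJ-F1 KO replicate 3 and 11% when fitted alone. The 2 higher calls in AJ-F1 hearts became 1 without AJ-F1 KO replicate 3 and 3 without AJ-F1 WT replicate 2, which added Col4a5. In CAST-F1 hearts 1 higher call was left without CAST-F1 WT replicate 1 and 3 without CAST-F1 WT replicate 3. The 0 lower calls in CAST-F1 hearts became 2 (Col4a2 and Col6a6) without AJ-F1 WT replicate 3 and 1 (Col6a6) without BL6J KO replicate 1, BL6J KO replicate 2 or CAST-F1 WT replicate 2. The 0 lower calls in BL6J hearts became 1 without BL6J KO replicate 2 (Col6a6), BL6J WT replicate 1 or AJ-F1 WT replicate 3 (both Col23a1).

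**Figure D2:**
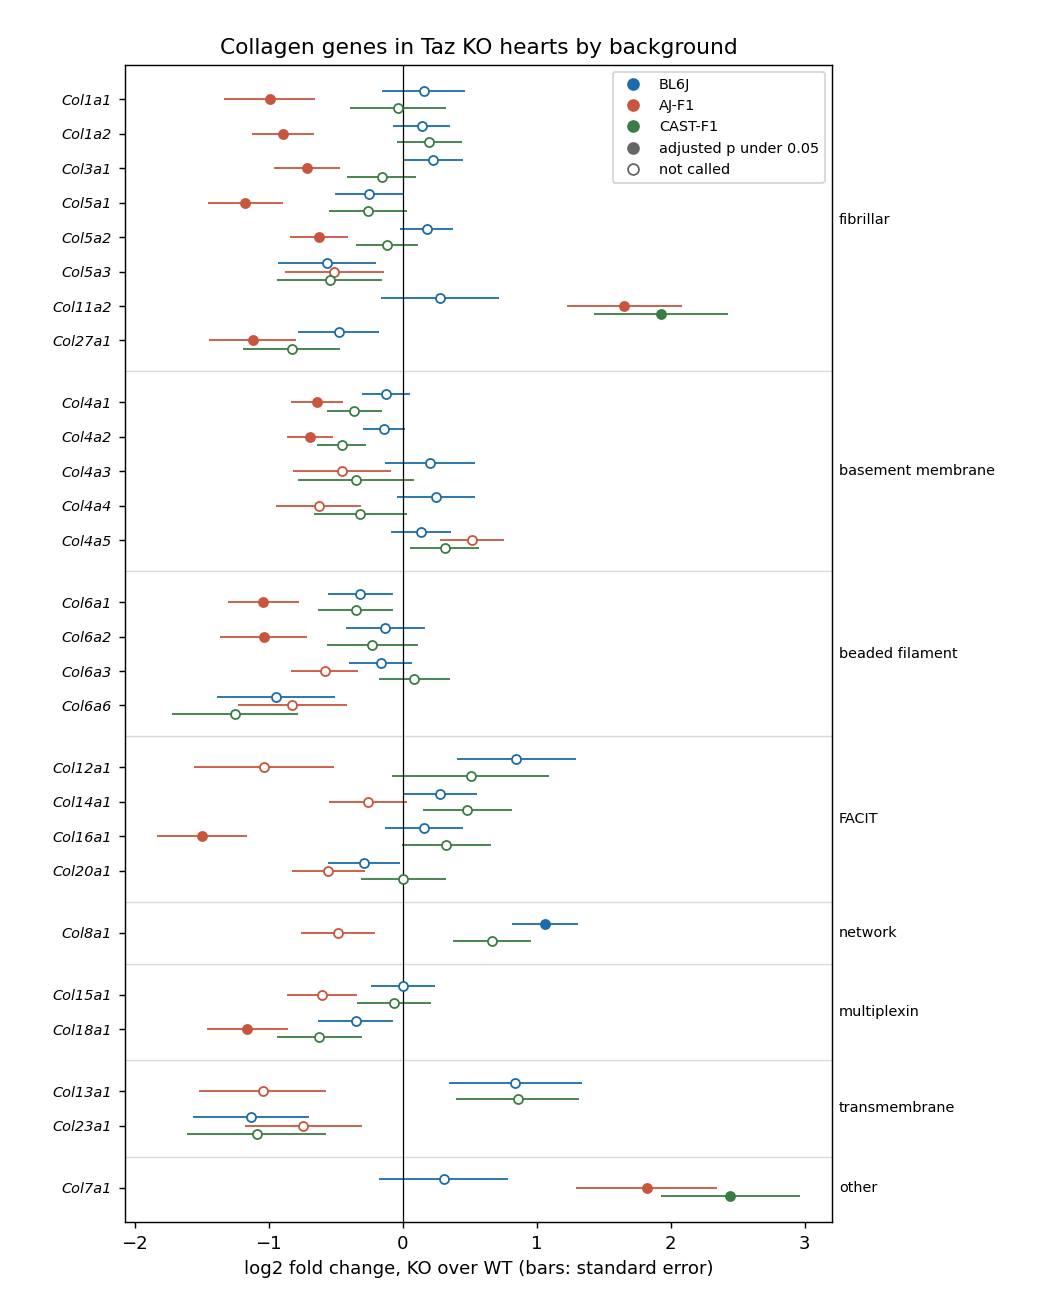
Log2 fold change of KO over WT with its standard error for the 27 tested collagens in BL6J, AJ-F1 and CAST-F1 hearts, grouped by class, with filled points where the adjusted p was under 0.05. The 12 filled points on the negative side are all AJ-F1, and Col7a1 and Col11a2 are filled on the positive side in AJ-F1 and CAST-F1.

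Col8a1 was the collagen called in BL6J hearts. It encodes a chain of the short-chain network collagen type VIII, found around vessels and in remodelling tissue. Its level was 36.4, 26.3, 30.4 and 38.7 CPM in the 4 BL6J KO libraries, against 22.3, 19.1, 10.5 and 10.8 CPM in the 4 BL6J WT libraries. All 4 KO libraries lay above all 4 WT libraries, which held for 1 of 27 collagens, where 15.5% of all genes tested were separated in this direction. The log2 fold change was 1.06 ± 0.24 (SE; edgeR adjusted p = 0.00283). In CAST-F1 hearts Col8a1 stood at 19.5, 17.7 and 19.3 CPM in KO libraries and at 10.2, 9.21 and 16.2 CPM in WT libraries. The CAST-F1 groups did not overlap, which held for 4 collagens above and 3 below, where 24% and 22.6% of all genes tested were separated in these directions. However, the log2 fold change of 0.67 ± 0.29 missed the threshold (edgeR adjusted p = 0.118). In AJ-F1 hearts it stood at 11.3, 10.2 and 9.14 CPM in KO libraries and at 20.4, 14.001, 9.51 and 12.8 CPM in WT libraries. Those groups overlapped, with a log2 fold change of -0.48 ± 0.28 (edgeR adjusted p = 0.197). The other type VIII chain, Col8a2, had too few reads to test.

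Col8a1 lies on chromosome 16 of GRCm38, minus strand, from base 57624258 to 57754737. The 250 bases before its RefSeq start (chr16:57754738-57754987, minus strand, GRCm38.p6) are shown because it was the collagen called in BL6J hearts. Capitals mark the GC box on either strand, the letters GGGCGG known to be bound by Sp-family factors.
Col8a1: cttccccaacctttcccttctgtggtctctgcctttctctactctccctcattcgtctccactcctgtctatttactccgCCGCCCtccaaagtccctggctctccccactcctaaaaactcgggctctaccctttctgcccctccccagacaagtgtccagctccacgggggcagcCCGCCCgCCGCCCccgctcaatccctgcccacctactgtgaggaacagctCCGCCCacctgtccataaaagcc
The window holds 4 GC boxes. A GC box was found in 32.7% of the 32851 windows of the same length in the RefSeq table. The matches describe letters, not binding.

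Col7a1 and Col11a2 rose in AJ-F1 and in CAST-F1 hearts. Col7a1 encodes type VII collagen, which forms the anchoring fibrils of skin, and Col11a2 encodes a minor fibrillar chain of type XI, best known from cartilage. Col7a1 had 0 to 13 reads in a library, so its values rest on few counts. It stood at 2.78, 2.16 and 2.79 CPM in CAST-F1 KO libraries, against 0.370, 0.635 and 0.344 CPM in CAST-F1 WT libraries. In AJ-F1 hearts it stood at 1.11, 0.753 and 1.34 CPM in KO libraries and at 0.544, 0, 0.164 and 0.401 CPM in WT libraries. The KO and WT libraries overlapped in neither background. The log2 fold change was 2.44 ± 0.52 in CAST-F1 (edgeR adjusted p = 0.00164) and 1.82 ± 0.53 in AJ-F1 hearts (edgeR adjusted p = 0.0134), the last lost without AJ-F1 KO replicate 3 (adjusted p = 0.0899). In BL6J hearts Col7a1 was at 0.425 to 1.20 CPM in KO and at 0.573 to 0.803 CPM in WT libraries, with a log2 fold change of 0.30 ± 0.48 (edgeR adjusted p = 0.711).

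Col11a2 was called in the same backgrounds. It stood at 8.13, 6.92 and 8.87 CPM in CAST-F1 KO libraries, against 0.740, 3.65 and 1.72 CPM in CAST-F1 WT libraries. In AJ-F1 hearts it stood at 5.18, 12.8 and 6.32 CPM in KO libraries and at 3.54, 3.03, 0.984 and 2.51 CPM in WT libraries. All KO libraries were above all WT libraries in both backgrounds, and AJ-F1 KO replicate 2 was the highest. The log2 fold change was 1.93 ± 0.50 in CAST-F1 (edgeR adjusted p = 0.00775) and 1.65 ± 0.43 in AJ-F1 hearts (edgeR adjusted p = 0.00628). The CAST-F1 call was lost without CAST-F1 WT replicate 1 (adjusted p = 0.0504) and the AJ-F1 call without AJ-F1 KO replicate 2 (adjusted p = 0.0679). In BL6J hearts Col11a2 was at 1.27 to 5.89 CPM in KO and at 2.41 to 3.38 CPM in WT libraries, with a log2 fold change of 0.28 ± 0.44 (edgeR adjusted p = 0.713).

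Mesothelium genes moved in the same backgrounds as this pair. Of 5 markers of the cell layer that covers the heart (Msln, Upk3b, Wt1, Lrrn4 and Krt19), 3 were called higher in AJ-F1, 2 in CAST-F1 and 0 in BL6J hearts, and 1 was called lower in BL6J hearts. Their summed level ran from 56.1 to 70.8 CPM in AJ-F1 KO and from 18.4 to 52.5 CPM in AJ-F1 WT libraries, and from 30.5 to 56.8 CPM in CAST-F1 KO and from 12.9 to 31.5 CPM in CAST-F1 WT libraries. In BL6J hearts it ran from 36.0 to 54.1 CPM in KO and from 34.9 to 60.8 CPM in WT libraries. Over all genes tested, 12.9%, 10.7% and 12.8% were called higher in AJ-F1, CAST-F1 and BL6J hearts, and 9.51% lower in BL6J hearts. The part of this layer in the Col7a1 and Col11a2 values was not tested.

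The promoters of this pair are shown because both genes rose in the same 2 backgrounds. Col7a1 lies on chromosome 9, plus strand, from base 108953586 to 108984875, and Col11a2 on chromosome 17, plus strand, from base 34039437 to 34066685 of GRCm38, with a RefSeq start a little before the GENCODE one. The windows are chr9:108953336-108953585 and chr17:34038888-34039137, plus strand, RefSeq, GRCm38.p6. Capitals mark, on either strand, the GC box, the CCAAT box known to be bound by the factor NF-Y, and the TATA box, which was searched for with the letters TATAAA.
Col7a1: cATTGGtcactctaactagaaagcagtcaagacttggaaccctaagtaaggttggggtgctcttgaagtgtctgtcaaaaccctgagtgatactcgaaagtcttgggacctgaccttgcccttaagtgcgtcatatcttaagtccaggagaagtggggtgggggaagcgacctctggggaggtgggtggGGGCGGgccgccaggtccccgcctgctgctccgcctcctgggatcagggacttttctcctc
Col11a2: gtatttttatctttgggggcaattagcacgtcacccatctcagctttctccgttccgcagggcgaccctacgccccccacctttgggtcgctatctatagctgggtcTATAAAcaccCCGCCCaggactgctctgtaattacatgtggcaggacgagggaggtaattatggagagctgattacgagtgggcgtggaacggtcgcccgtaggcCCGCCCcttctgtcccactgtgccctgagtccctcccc
The Col7a1 window holds 1 GC box and 1 CCAAT match, the latter 249 bases before the start. The Col11a2 window holds 2 GC boxes and the letters TATAAA once, 143 bases before the start. Of all windows of this length 33.8% hold a CCAAT match and 12.4% the letters TATAAA, at any position and on either strand. The GC box was the motif present in both windows.

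**Figure D3:**
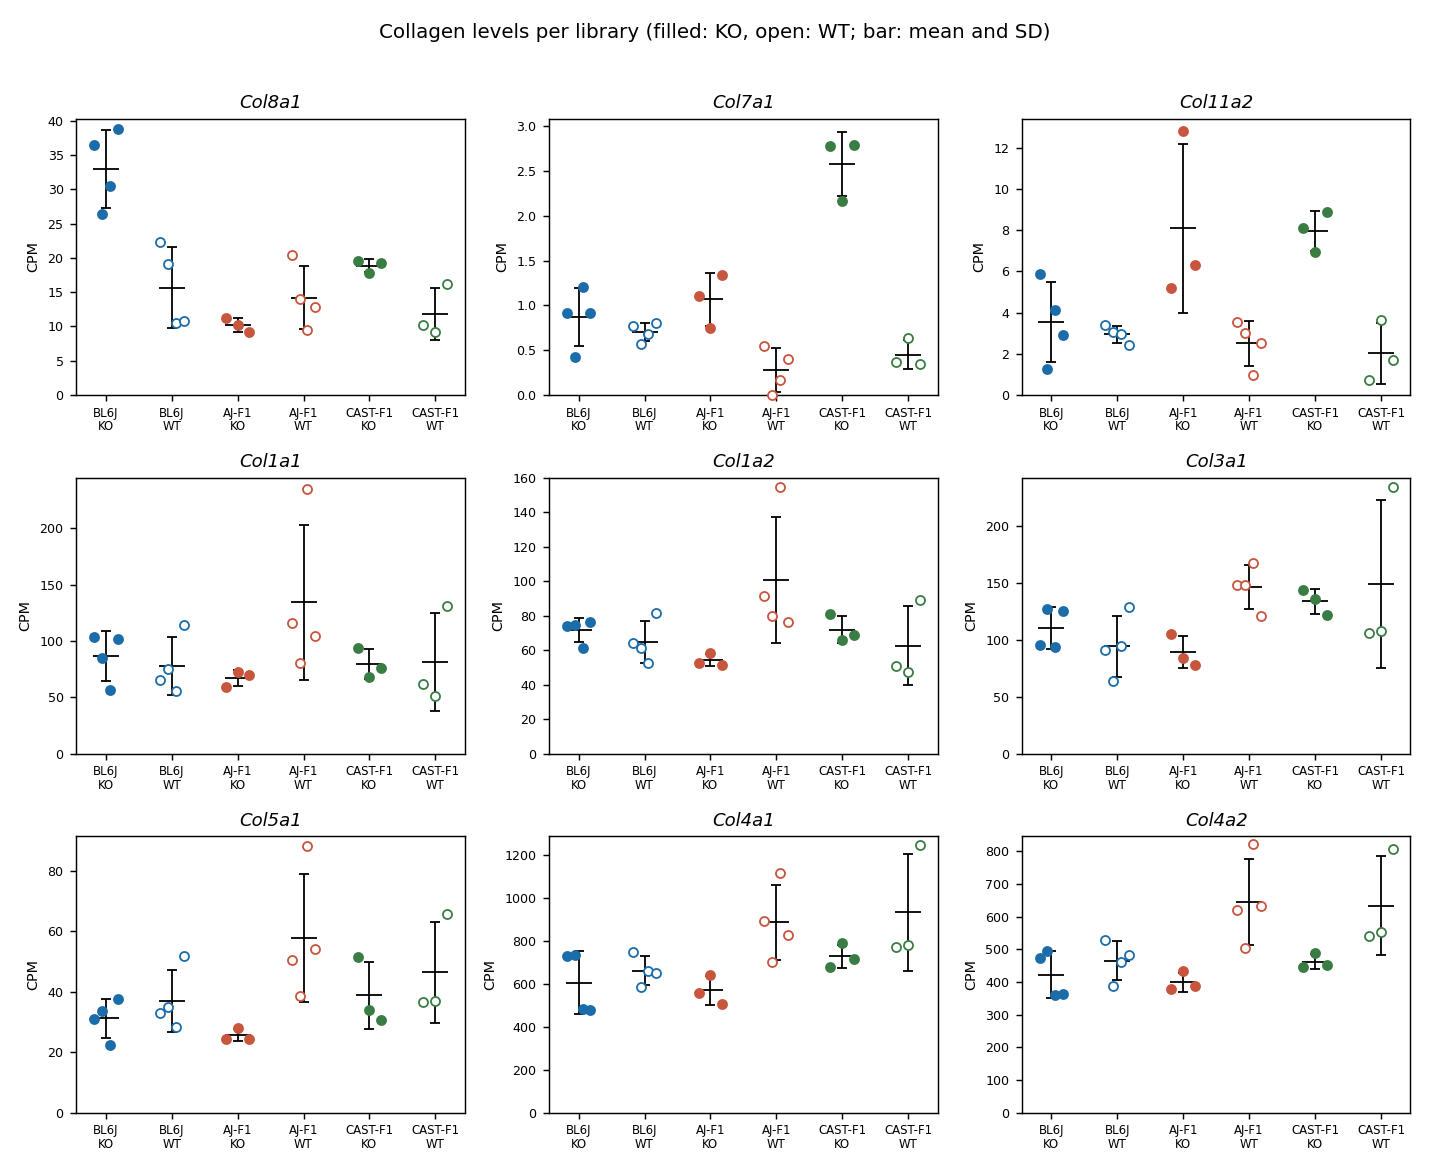
Level in CPM (vertical axes, from 0) of 9 collagens in each library by group, with the group mean and SD. Col8a1 is separated between KO and WT libraries in BL6J and CAST-F1, Col7a1 and Col11a2 in AJ-F1 and CAST-F1, and the fibrillar and type IV chains shown in AJ-F1. Col4a2 is separated in CAST-F1 as well.

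The 12 collagens that fell in AJ-F1 KO hearts came from 5 classes. They were 6 of 8 tested fibrillar genes (Col1a1, Col1a2, Col3a1, Col5a1, Col5a2 and Col27a1), 2 of 5 basement membrane genes (Col4a1 and Col4a2), 2 of 4 beaded filament genes (Col6a1 and Col6a2), 1 of 4 FACIT genes (Col16a1) and 1 of 2 multiplexins (Col18a1). Their log2 fold changes ran from -1.50 to -0.63. The 3 AJ-F1 KO libraries lay below all 4 AJ-F1 WT libraries for 14 of the 27 collagens and above them for 2, where 14.9% and 14.1% of all genes tested were separated in these directions. The class medians in AJ-F1 hearts were -0.80 for fibrillar, -0.63 for basement membrane, -0.93 for beaded filament and -0.80 for FACIT collagens. In BL6J hearts these medians were 0.15, 0.14, -0.24 and 0.22, and in CAST-F1 hearts they were -0.14, -0.35, -0.29 and 0.40. Without CAST-F1 WT replicate 3 the CAST-F1 medians were 0.27, -0.094, 0.15 and 0.55, so the fibrillar and beaded filament medians turned positive, and without BL6J KO replicate 1 the BL6J fibrillar median was -0.011.

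Among the fibrillar chains, type I collagen is the main load-bearing collagen of the heart. Col1a1 stood at 59.5, 72.7 and 69.9 CPM in AJ-F1 KO libraries, against 116, 80.7, 235 and 105 CPM in AJ-F1 WT libraries. The groups did not overlap, and WT replicate 3 lay far above the other WT libraries. Its log2 fold change was -0.99 ± 0.34 (edgeR adjusted p = 0.033). Without AJ-F1 WT replicate 3 it was -0.59 (adjusted p = 0.171), and the call was also lost without any one of the 3 AJ-F1 KO libraries. Col1a2, the other chain of type I, stood at 52.5, 58.2 and 51.8 CPM in AJ-F1 KO libraries and at 91.8, 80.1, 154 and 76.5 CPM in AJ-F1 WT libraries. It did not overlap either, and its log2 fold change was -0.89 ± 0.23 (edgeR adjusted p = 0.00648). Col3a1, which forms thinner fibrils with type I, stood at 105, 84.7 and 78.0 CPM in AJ-F1 KO and at 149, 149, 168 and 121 CPM in AJ-F1 WT libraries. Its log2 fold change was -0.72 ± 0.25 (edgeR adjusted p = 0.0333), lost without AJ-F1 KO replicate 2, AJ-F1 KO replicate 3 or AJ-F1 WT replicate 3.

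These 3 genes were not called on the other backgrounds. In BL6J hearts Col1a1 was at 56.3 to 104 CPM in KO and 55.5 to 115 CPM in WT libraries, and its log2 fold change was 0.16 ± 0.31. In CAST-F1 hearts it was at 68.6 to 94.3 CPM in KO and 51.0 to 131 CPM in WT libraries, with -0.033 ± 0.36. Col1a2 had 0.14 ± 0.21 in BL6J and 0.20 ± 0.24 in CAST-F1 hearts, and Col3a1 had 0.22 ± 0.22 and -0.16 ± 0.26. The KO and WT libraries of all these pairs overlapped.

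Type V chains, which set the diameter of type I fibrils, were called for 2 of 3 members. Col5a1 stood at 24.4, 27.9 and 24.5 CPM in AJ-F1 KO and at 50.3, 38.7, 88.0 and 54.1 CPM in AJ-F1 WT libraries, without overlap, with a log2 fold change of -1.17 ± 0.28 (edgeR adjusted p = 0.00353). With Col16a1 it was 1 of 2 lower calls that held under all 28 alternative settings run. Col5a2 stood at 19.8, 14.7 and 12.0 CPM in AJ-F1 KO and at 27.5, 24.8, 21.5 and 21.3 CPM in AJ-F1 WT libraries, with -0.63 ± 0.21 (edgeR adjusted p = 0.0328). Its call was lost without AJ-F1 KO replicate 2, AJ-F1 KO replicate 3 or AJ-F1 WT replicate 1. Col5a3, the third type V chain, was at 18.8 to 26.5 CPM in KO and 22.3 to 51.4 CPM in WT libraries and was not called (-0.51 ± 0.37, edgeR adjusted p = 0.311). Col27a1, a minor fibrillar collagen of cartilage, stood at 2.96, 3.01 and 2.15 CPM in KO and at 6.93, 6.06, 5.41 and 5.01 CPM in WT libraries (-1.12 ± 0.32, edgeR adjusted p = 0.0129), a call lost without AJ-F1 KO replicate 3.

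The most abundant collagens, Col4a1 and Col4a2, fell in AJ-F1 KO hearts as well. Col4a1 stood at 558, 643 and 508 CPM in AJ-F1 KO libraries, against 895, 705, 1119.5 and 829 CPM in AJ-F1 WT libraries, a log2 fold change of -0.64 ± 0.19 (edgeR adjusted p = 0.0179). Its call was lost without AJ-F1 KO replicate 1 or AJ-F1 KO replicate 3. Col4a2 stood at 379, 433 and 387 CPM in AJ-F1 KO libraries and at 621, 503, 822 and 634 CPM in AJ-F1 WT libraries (-0.69 ± 0.17, edgeR adjusted p = 0.00531). All KO libraries were below all WT libraries for both genes. In CAST-F1 hearts Col4a2 was at 446, 488 and 452 CPM in KO libraries and at 541, 552 and 807 CPM in WT libraries, also without overlap. Its log2 fold change there, -0.46 ± 0.18, was not called (edgeR adjusted p = 0.0853).

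The other type IV chains, which form the networks of kidney, lung and some vessel walls, were not called in any background. In BL6J, AJ-F1 and CAST-F1 hearts Col4a3 had log2 fold changes of 0.20, -0.45 and -0.35, and Col4a4 had 0.25, -0.63 and -0.32. Col4a5, on the X chromosome, had 0.14 ± 0.22, 0.52 ± 0.24 and 0.31 ± 0.26. Its level was 52.3, 31.3 and 50.5 CPM in AJ-F1 KO libraries and 29.0, 46.0, 16.1 and 33.7 CPM in AJ-F1 WT libraries, which overlapped. In AJ-F1 hearts Col4a5 was thus the tested type IV chain with a positive value, and it was called there without AJ-F1 KO replicate 2 or without AJ-F1 WT replicate 2.

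Type VI collagen fell through its α1 and α2 chains. Col6a1 stood at 53.2, 65.9 and 45.4 CPM in AJ-F1 KO libraries, against 105, 80.5, 179 and 87.0 CPM in AJ-F1 WT libraries (-1.04 ± 0.27, edgeR adjusted p = 0.00609). Col6a2 stood at 64.0, 88.9 and 69.5 CPM in AJ-F1 KO libraries and at 129, 92.4, 270.4 and 117 CPM in AJ-F1 WT libraries (-1.04 ± 0.32, edgeR adjusted p = 0.0202). WT replicate 3 was the highest library of its group for both, and without it the Col6a2 value was -0.62 (adjusted p = 0.101). The Col6a2 call was also lost without AJ-F1 KO replicate 1 or AJ-F1 KO replicate 3. Col6a3, the long α3 chain, had -0.58 ± 0.25 and was not called (edgeR adjusted p = 0.0864). Col6a6, a rarer type VI chain, had -0.94 ± 0.44 in BL6J, -0.82 ± 0.40 in AJ-F1 and -1.25 ± 0.47 in CAST-F1 hearts, and edgeR called none of them.

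Of the smaller classes, the FACIT gene Col16a1 had the lowest log2 fold change of the 27 in AJ-F1 hearts. It stood at 3.14, 1.69 and 1.48 CPM in AJ-F1 KO libraries, against 6.25, 5.20, 7.54 and 4.71 CPM in AJ-F1 WT libraries, with -1.50 ± 0.34 (edgeR adjusted p = 0.00236). No KO library reached the lowest WT library. In CAST-F1 hearts it was at 5.32 to 6.49 CPM in KO and 3.33 to 7.75 CPM in WT libraries, and in BL6J hearts at 3.78 to 5.89 CPM in KO and 3.41 to 5.84 CPM in WT libraries. Both of these pairs overlapped. The other tested FACIT genes, Col12a1, Col14a1 and Col20a1, had -1.03 ± 0.52, -0.26 ± 0.29 and -0.56 ± 0.27 in AJ-F1 hearts and were called in no background.

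Col18a1, the multiplexin whose end fragment is endostatin, stood at 9.98, 7.34 and 8.87 CPM in AJ-F1 KO and at 16.3, 12.7, 32.6 and 16.9 CPM in AJ-F1 WT libraries (-1.16 ± 0.30, edgeR adjusted p = 0.0071). Its annotated span overlaps that of Slc19a1 on the other strand, and reads in shared bases cannot be told apart if strand was not used. Whether exons of the genes overlap was not examined. Col15a1, the more abundant multiplexin, was at 96.3 to 123 CPM in AJ-F1 KO and 123 to 236 CPM in AJ-F1 WT libraries and was not called (-0.60 ± 0.26, edgeR adjusted p = 0.0874). The transmembrane collagens were not called either. Col23a1 had -1.13 ± 0.43, -0.74 ± 0.44 and -1.09 ± 0.52, and Col13a1 had 0.84 ± 0.50, -1.05 ± 0.48 and 0.86 ± 0.46 in BL6J, AJ-F1 and CAST-F1 hearts.

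The promoters of Col5a1 and Col16a1 are shown because their lower calls held under every setting run. Col5a1 lies on chromosome 2, plus strand, from base 27886425 to 28039514, and Col16a1 on chromosome 4, plus strand, from base 130047840 to 130099283 of GRCm38. The windows are chr2:27886175-27886424 and chr4:130047590-130047839, plus strand, RefSeq, GRCm38.p6, with capitals for the same motifs.
Col5a1: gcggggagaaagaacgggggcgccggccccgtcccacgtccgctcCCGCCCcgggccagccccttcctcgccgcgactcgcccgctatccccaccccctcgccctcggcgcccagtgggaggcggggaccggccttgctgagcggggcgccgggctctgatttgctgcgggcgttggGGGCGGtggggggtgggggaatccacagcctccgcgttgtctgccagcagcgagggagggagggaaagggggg
Col16a1: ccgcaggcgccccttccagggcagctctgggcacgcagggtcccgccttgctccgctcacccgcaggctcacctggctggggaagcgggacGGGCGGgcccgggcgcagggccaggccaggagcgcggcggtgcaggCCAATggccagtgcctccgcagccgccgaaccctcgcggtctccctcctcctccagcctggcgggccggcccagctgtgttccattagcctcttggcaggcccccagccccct
The Col5a1 window holds 2 GC boxes, and the Col16a1 window holds 1 GC box and 1 CCAAT box. RefSeq windows were matched for 30 of the 38 collagens of the table. Of 38 collagen windows in the whole RefSeq table, 22 hold a GC box, 13 a CCAAT match and 5 the letters TATAAA. Nothing about the factors follows from these letters.

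Sums over classes were lower in AJ-F1 KO hearts too. Summed fibrillar CPM averaged 284.5 ± 19.1 in AJ-F1 KO (SD, n = 3) and 503 ± 139 in AJ-F1 WT libraries (n = 4), so the KO mean was 56.6% of the WT mean. Summed basement membrane CPM averaged 1022 ± 81.3 in AJ-F1 KO and 1575 ± 289.6 in AJ-F1 WT libraries, or 64.9%. For beaded filament collagens the KO mean was 51.4% of the WT mean. In none of these 3 classes did the AJ-F1 KO and WT libraries overlap. In BL6J hearts the KO means were 106.8%, 92.1% and 86.2% of the WT means for the fibrillar, basement membrane and beaded filament classes, and in CAST-F1 hearts they were 93.7%, 76.9% and 85.6%. Without CAST-F1 WT replicate 3 the CAST-F1 values were 127%, 90.7% and 116%, so the direction turned for the fibrillar and beaded filament classes. With any one library left out, the AJ-F1 values stayed between 53.2% and 65.2%, between 61.0% and 70.8%, and between 46.5% and 64.8% in the same order of classes. Leaving libraries out of these sums was chosen after seeing the data.

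Single WT libraries carried high collagen levels. CAST-F1 WT replicate 3 was the highest of its group for 22 of the 27 collagens, and the summed collagen CPM of that group ran from 1965 to 3362. AJ-F1 WT replicate 3 was the highest of its group for 15 of the 27, in a group that ran from 2073 to 3492. BL6J WT replicate 4 was the highest of its group for 17 of the 27, in a group that ran from 1593 to 2076. Within KO groups AJ-F1 KO replicate 2 was the highest for 14 of the 27. For BL6J KO replicate 2 and CAST-F1 KO replicate 1 the count was 12 each. The same count over all genes tested was not made. The summed collagen CPM ran from 1494 to 1765 in AJ-F1 KO and from 1919 to 2077 in CAST-F1 KO libraries. Between AJ-F1 WT libraries log2 CPM over all genes tested correlated at 0.895 to 0.980, and at 0.9635 or more within every other group. AJ-F1 WT replicate 3 had the lowest TMM factor of all libraries, 0.860. Without it, 28.5%, 27.3% and 26.8% of all genes tested were called in BL6J, AJ-F1 and CAST-F1 hearts, against 22.3%, 28.5% and 20.3% with it.

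**Figure D4:**
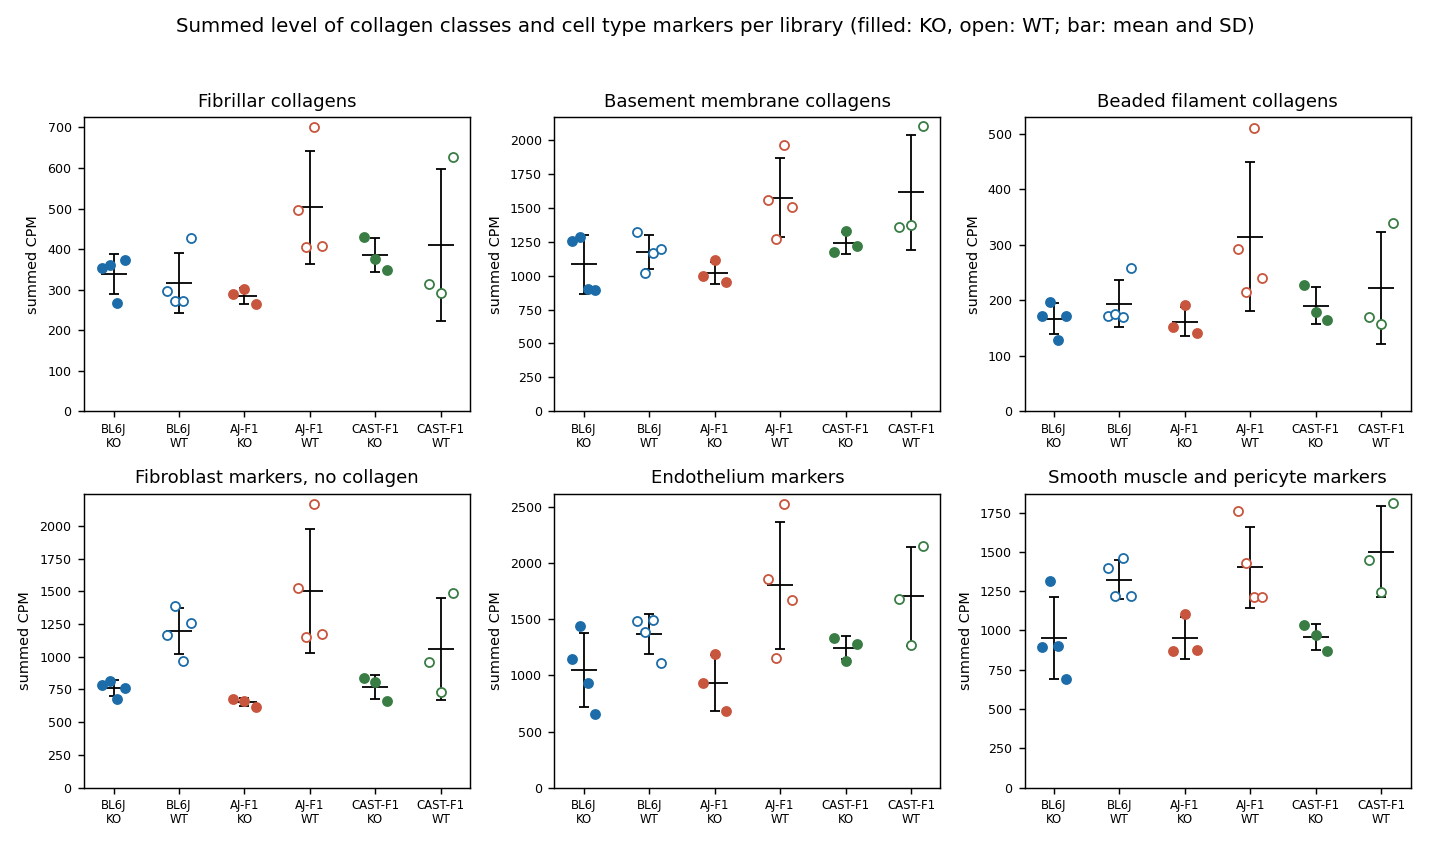
Summed CPM (vertical axes, from 0) of the fibrillar, basement membrane and beaded filament collagens and of marker lists of fibroblasts (collagens left out), endothelium, and smooth muscle and pericytes, by library and group, with mean and SD. AJ-F1 KO libraries lie below AJ-F1 WT libraries for the 3 collagen classes and for the fibroblast and smooth muscle lists. BL6J KO libraries lie below BL6J WT libraries for the fibroblast list. CAST-F1 KO libraries lie below CAST-F1 WT libraries for the basement membrane class and the smooth muscle list.

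Summed markers of fibroblasts, of endothelium, and of smooth muscle and pericytes had lower KO means than WT means in all 3 backgrounds. Of 10 fibroblast markers that are not collagens (Pdgfra, Tcf21, Dpt, Dcn, Lum, Gsn, Mfap5, Fbln1, Scara5 and Dpep1), 9 were called lower in AJ-F1, 4 in BL6J and 2 in CAST-F1 KO hearts. Their summed level ran from 616 to 674 CPM in AJ-F1 KO and from 1154 to 2167 CPM in AJ-F1 WT libraries. It ran from 674 to 818 CPM in BL6J KO and from 968 to 1384 CPM in BL6J WT libraries, and from 665 to 839.7 CPM in CAST-F1 KO and from 730.4 to 1487 CPM in CAST-F1 WT libraries. The fibroblast sum was thus separated in BL6J hearts as well, where edgeR called no collagen lower. Of 10 endothelial markers, 8 were called lower in AJ-F1 and 0 in BL6J or CAST-F1 hearts, with sums of 686 to 1186 CPM in AJ-F1 KO and 1153 to 2525 CPM in AJ-F1 WT libraries. Of 7 tested smooth muscle and pericyte markers, 5, 1 and 2 were called lower in AJ-F1, BL6J and CAST-F1 hearts. Over all genes tested, 15.7%, 9.51% and 9.59% were called lower in AJ-F1, BL6J and CAST-F1 hearts. In that order of backgrounds, the KO mean of the summed level was 51.9%, 76.3% and 73.2% of the WT mean for endothelium. It was 67.7%, 71.8% and 63.7% for smooth muscle and pericytes, and 76.8%, 72.4% and 68.2% for cardiomyocytes. Of 7 macrophage markers 0 were called in any background, and of 7 cardiomyocyte markers 3, 4 and 4 were called lower in AJ-F1, BL6J and CAST-F1 hearts. The part of these cell types in the collagen values was not tested.

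Among markers of activated fibroblasts, Acta2, smooth muscle actin, made up most of the summed level, and it also marks smooth muscle cells. It averaged 1578 ± 504 CPM in BL6J KO and 415 ± 84.3 CPM in BL6J WT hearts, 793 ± 141 CPM in AJ-F1 KO and 274 ± 62.7 CPM in AJ-F1 WT hearts, and 796 ± 177 CPM in CAST-F1 KO and 68.0 ± 22.8 CPM in CAST-F1 WT hearts (SD). Its log2 fold changes of 1.93 ± 0.23, 1.54 ± 0.24 and 3.55 ± 0.29 in BL6J, AJ-F1 and CAST-F1 hearts were called in all 3. The summed CPM of the list was 1684 ± 501 in BL6J KO and 485.7 ± 69.4 in BL6J WT hearts, 834.9 ± 139.7 in AJ-F1 KO and 359.8 ± 69.8 in AJ-F1 WT hearts, and 839 ± 176 in CAST-F1 KO and 123 ± 42.1 in CAST-F1 WT hearts (SD). Calls went both ways in AJ-F1 and CAST-F1 hearts. Of 6 tested, 2, 1 and 1 were called higher and 0, 2 and 1 lower in BL6J, AJ-F1 and CAST-F1 hearts, and 2, 5 and 3 had a negative log2 fold change, with list medians of 0.24, -0.68 and -0.17. The other member called higher was Postn, periostin, with 0.93 ± 0.30 in BL6J hearts (edgeR adjusted p = 0.0258). The lower calls were Tagln, a smooth muscle actin-binding protein, with -2.26 ± 0.35 in AJ-F1 and -1.21 ± 0.37 in CAST-F1 hearts, and Meox1, a transcription factor, with -0.81 ± 0.28 in AJ-F1 hearts. These 4 genes were singled out after their values were seen. Over all genes tested, 12.8%, 12.9% and 10.7% were called higher and 9.51%, 15.7% and 9.59% lower in BL6J, AJ-F1 and CAST-F1 hearts.

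The direct comparison of the KO response between backgrounds called no collagen with edgeR. For AJ-F1 minus BL6J, 0 of 27 were called, beside 0.00811% of all genes tested. At an unadjusted p under 0.05 there were 13, of which 11 had a lower response in AJ-F1, where 11.1% of all genes tested passed. DESeq2 called 1, Col8a1 (-1.54, adjusted p = 0.02). The edgeR difference was -1.54 ± 0.37 for Col8a1, -1.66 ± 0.44 for Col16a1 and -1.04 ± 0.31 for Col1a2, with adjusted p of 0.122, 0.185 and 0.251. For CAST-F1 minus AJ-F1, edgeR called 0 (0.0892% of all genes tested, 0.073% higher and 0.0162% lower), 5 passed an unadjusted p under 0.05 beside 9.88% of all genes tested, and DESeq2 called 1, Col16a1 (1.83, adjusted p = 0.0499). For CAST-F1 minus BL6J, edgeR and DESeq2 called 0 (with edgeR, 0.0324% of all genes tested, 0.0243% higher). There, 2 passed an unadjusted p under 0.05 beside 4.84% of all genes tested, Col7a1 (2.14 ± 0.73) and Col11a2 (1.65 ± 0.67). With edgeR, the fall of the 12 collagens in AJ-F1 hearts was therefore not shown to differ from the response of the other backgrounds. The same 12 had a median log2 fold change of -0.13 in BL6J hearts, with 7 negative, and of -0.24 in CAST-F1 hearts, with 10 negative. Without CAST-F1 WT replicate 3, the CAST-F1 values of Col1a1, Col3a1, Col5a1, Col5a2, Col6a1 and Col6a2 turned positive.

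WT hearts of the 3 backgrounds were compared as well, and edgeR called 0 collagens in each pair. Between AJ-F1 WT and BL6J WT hearts 16 passed an unadjusted p under 0.05, 15 of them higher in AJ-F1, where 22.4% of all genes tested passed and 3.26% were called, 1.99% as higher. All AJ-F1 WT libraries lay above all BL6J WT libraries for 3 collagens and below them for 1, beside 5.08% and 3.73% of all genes tested. The smallest adjusted p was 0.0967, for Col1a2, at 0.63 ± 0.21, DESeq2 called 0, and without AJ-F1 WT replicate 2 edgeR called 7. Each of the 12 collagens that fell in AJ-F1 KO hearts had a positive log2 difference between AJ-F1 WT and BL6J WT hearts, from 0.36 to 0.81 with a median of 0.56. This comparison and the AJ-F1 KO comparison share the AJ-F1 WT libraries, in which a high value raises one difference and lowers the other. Col1a1 averaged 134 ± 68.9 CPM in AJ-F1 WT hearts, against 77.7 ± 25.8 CPM in BL6J WT hearts, and Col4a1 averaged 887 ± 174 CPM in AJ-F1 WT hearts, against 662 ± 67.1 CPM in BL6J WT hearts (SD, n = 4 each).

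Between CAST-F1 WT and BL6J WT hearts edgeR called 0, beside 5.73% of all genes tested (3.36% higher), and 5 passed an unadjusted p under 0.05 beside 19% of all genes tested. DESeq2 called 1, Col5a3, whose edgeR difference was 1.23 ± 0.37 (adjusted p = 0.0521), with 41.6 ± 22.2 CPM in CAST-F1 WT and 17.8 ± 5.09 CPM in BL6J WT hearts. Between CAST-F1 WT and AJ-F1 WT hearts edgeR called 0, beside 5.26% of all genes tested, and DESeq2 called 0. There, 5 passed an unadjusted p under 0.05, all lower in CAST-F1, beside 21.5% of all genes tested. The CAST-F1 WT libraries were separated above the AJ-F1 WT libraries for 0 collagens and below them for 2, beside 7.12% and 7.22% of all genes tested. Each of the 2 comparisons with CAST-F1 had at most 1 call when a library was left out. Reads from strain alleles can align less well to a reference genome, and the part of this in the WT comparisons was not tested.

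Genes that act on collagens were described from 7 lists. Over all genes tested, 12.8% were called higher and 9.51% lower in BL6J hearts. The shares were 12.9% and 15.7% in AJ-F1 hearts, and 10.7% and 9.59% in CAST-F1 hearts. Some counts for the 7 lists lie near these shares, and no list was tested as a set. Of 18 tested enzymes and chaperones of chain hydroxylation and folding, 3 rose and 3 fell in BL6J, 1 rose and 5 fell in AJ-F1, and 1 rose and 1 fell in CAST-F1 hearts, with list medians of -0.16, -0.25 and -0.012. P3h2, a prolyl 3-hydroxylase of basement membrane collagen, rose in all 3, with log2 fold changes of 2.02 ± 0.38, 1.06 ± 0.38 and 1.82 ± 0.41 in BL6J, AJ-F1 and CAST-F1 hearts. P3h4, a partner of collagen-modifying enzymes, fell in all 3, with -1.01 ± 0.22, -1.23 ± 0.24 and -1.10 ± 0.28. P3h1, the prolyl 3-hydroxylase of fibrillar chains, had -0.43 ± 0.15, -0.63 ± 0.16 and -0.24 ± 0.17, called in BL6J and AJ-F1 hearts. Fkbp10, a chaperone of type I procollagen, had -0.86 ± 0.25, -1.93 ± 0.28 and -0.79 ± 0.32, the first and second called and the last not (edgeR adjusted p = 0.0888).

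Of 11 tested genes of propeptide removal and crosslinking, 1 rose in each background and 1, 4 and 0 fell in BL6J, AJ-F1 and CAST-F1 hearts, with list medians of 0.090, -0.45 and 0.063. The gene that rose was Loxl4, a lysyl oxidase-like crosslinking enzyme, with 1.65 ± 0.37, 1.55 ± 0.34 and 2.03 ± 0.43. In AJ-F1 hearts Loxl2, Loxl3 and Pcolce, the enhancer of procollagen C-proteinase, fell, with -1.02 ± 0.27, -1.15 ± 0.30 and -1.01 ± 0.26. Pcolce had 0.090 ± 0.24 in BL6J and -0.011 ± 0.28 in CAST-F1 hearts. Of 12 proteins that bind collagen fibrils, 0 rose and 7 fell in AJ-F1 hearts, 1 rose and 1 fell in BL6J hearts and 0 were called in CAST-F1 hearts by edgeR, with list medians of -0.77, -0.26 and -0.24. Sparc, a collagen-binding matrix protein, had -1.17 ± 0.24 in AJ-F1 hearts, Tnxb, tenascin-X, had -1.15 ± 0.21 and Prelp, a leucine-rich matrix proteoglycan, had -1.13 ± 0.27. Dcn, decorin, is also among the fibroblast markers and had -0.86 ± 0.21 in AJ-F1 hearts.

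The list for collagen breakdown holds proteases and also their inhibitors, so its counts and medians give no direction of breakdown. Of its 11 tested genes, 1 rose in each background and 1, 7 and 2 fell in BL6J, AJ-F1 and CAST-F1 hearts. The list medians were -0.25, -0.73 and -0.025. The gene that rose was Ctsk, cathepsin K, a protease that cuts the collagen helix, with 1.71 ± 0.31, 1.25 ± 0.28 and 1.78 ± 0.32. Its level was 6.35 ± 2.31 CPM in BL6J KO and 1.93 ± 0.255 CPM in BL6J WT hearts, 8.76 ± 1.34 CPM in AJ-F1 KO and 3.73 ± 1.45 CPM in AJ-F1 WT hearts, and 11.4 ± 1.21 CPM in CAST-F1 KO and 3.29 ± 0.866 CPM in CAST-F1 WT hearts (SD). Mmp15, a membrane-bound metalloproteinase, fell in all 3, with -1.14 ± 0.23, -1.36 ± 0.25 and -1.38 ± 0.27. The metalloproteinase inhibitors Timp1 and Timp2 fell in AJ-F1 hearts, with -2.33 ± 0.59 and -1.10 ± 0.21. Of 7 tested collagen receptors, 1, 0 and 1 rose and none was called lower in BL6J, AJ-F1 and CAST-F1 hearts, with list medians of -0.021, 0.0013 and 0.10. The receptor that rose was Ddr2, the receptor kinase for fibrillar collagen, with 0.92 ± 0.26 in BL6J and 1.26 ± 0.30 in CAST-F1 hearts, and it had 0.50 ± 0.28 in AJ-F1 hearts (edgeR adjusted p = 0.182). The collagen-binding integrin chains Itga1, Itga10 and Itga11 had -0.57 ± 0.26, 0.69 ± 0.56 and -0.88 ± 0.45 in AJ-F1 hearts and were called in no background.

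Of 14 tested partners of type IV collagen in the basement membrane, 1, 1 and 2 rose and 3, 7 and 4 fell in BL6J, AJ-F1 and CAST-F1 hearts, with list medians of -0.33, -0.50 and -0.25. Lama5, a laminin chain, fell in all 3, with -0.91 ± 0.14, -1.12 ± 0.16 and -1.36 ± 0.17. Lamb2, a laminin β chain, had -0.32 ± 0.12, -0.47 ± 0.13 and -1.14 ± 0.14, called in AJ-F1 and CAST-F1 hearts. Agrn, agrin, had 0.32 ± 0.13, -0.034 ± 0.14 and 0.79 ± 0.15, called in CAST-F1 hearts.

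Of 15 tested signals that induce collagen, 4 rose and 3 fell in BL6J, 1 rose and 5 fell in AJ-F1, and 2 rose and 3 fell in CAST-F1 hearts, with list medians of -0.16, -0.36 and -0.20. Tgfb2, a transforming growth factor that drives collagen synthesis, rose in all 3, with 3.29 ± 0.35, 1.98 ± 0.35 and 3.72 ± 0.42. Its level was 85.6 ± 29.8 CPM in BL6J KO and 8.65 ± 2.94 CPM in BL6J WT hearts, 30.9 ± 5.03 CPM in AJ-F1 KO and 7.68 ± 2.89 CPM in AJ-F1 WT hearts, and 74.5 ± 37.0 CPM in CAST-F1 KO and 5.65 ± 1.06 CPM in CAST-F1 WT hearts (SD). Ctgf, a matrix protein induced by such factors, rose in BL6J and CAST-F1 hearts, with 2.01 ± 0.39 and 2.62 ± 0.46, and had 0.29 ± 0.40 in AJ-F1 hearts (edgeR adjusted p = 0.616). Ltbp1, which holds the latent factor in the matrix, fell in all 3, with -1.54 ± 0.22, -1.22 ± 0.23 and -1.34 ± 0.25. Tgfbr3, a co-receptor, fell in BL6J and CAST-F1 hearts, with -0.91 ± 0.17 and -0.94 ± 0.20, and had -0.31 ± 0.18 in AJ-F1 hearts. Both Tgfb2 and Ctgf rose in BL6J and CAST-F1 hearts, where the collagens called were Col8a1 in BL6J and Col7a1 and Col11a2 in CAST-F1. In AJ-F1 hearts Tgfb2 rose and Ctgf was not called. There, Col7a1 and Col11a2 were called higher as well, and 12 collagens were called lower. The part of these signals in the collagen values was not tested.

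The 11 collagens left untested had 0 to 11 reads in a library and group means of at most 1.12 CPM. They were Col4a6, Col6a5, Col8a2, Col9a2, Col9a3, Col11a1, Col17a1, Col22a1, Col25a1, Col26a1 and Col28a1. Col11a1, a partner of Col11a2 in type XI collagen, had 14 reads over the CAST-F1 KO libraries and 1 over the CAST-F1 WT libraries, a depth-adjusted ratio of 18.5 with a 95% interval of 2.82 to 783. Col22a1, a FACIT of tissue junctions, had 2 reads over the AJ-F1 KO and 23 over the AJ-F1 WT libraries, a ratio of 0.145 with an interval of 0.0166 to 0.588. Col26a1 had 2 reads over the AJ-F1 KO and 21 over the AJ-F1 WT libraries, a ratio of 0.159 with an interval of 0.0181 to 0.651. These 3 were picked after their values were seen, and the exact intervals cover counting error only.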

How the data were processed

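Reads per gene in 21 polyA, stranded libraries of heart ventricle were counted by the authors and deposited as raw counts; per the submitters' processing notes the tools were HISAT, featureCounts and DESeq2 with GRCm38.p6, with versions and settings not given in the sources used here. A further 42 deposited columns of transformed per-sample values were not used. Counts were scaled by TMM, filtered with filterByExpr and tested in 1 model of 6 groups with edgeR 4.0.16 (quasi-likelihood, robust; R 4.3.3), with Benjamini-Hochberg adjustment over the 12333 of 14732 genes kept. These held 99.91% of reads, and the common biological variation was 20.3%. DESeq2 1.42.0, other scalings and filters, a replicate block, separate fits and leaving out each library were alternatives. The test was checked on simulated counts. Exon lengths came from GENCODE and promoters from RefSeq, both GRCm38. The members and gene lists were chosen with earlier results of these data known. Named with values were a panel of the main heart collagens, each collagen called in any KO comparison or response difference, and up to 4 genes of each list with the smallest adjusted p, of which 1 is not reported here; other collagens were named after their values were seen.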

Additional observations from a re-analysis of the deposited data

Results flagged for a closer look

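In 77 groups of 4 libraries checked over the tested collagens, 3 had a library whose gap to its nearest neighbour, divided by the group's whole range, was above Dixon's 95% critical value for 4 samples, where chance gives about 1 in 20. Col1a2 in BL6J KO hearts had a gap of 0.871 of the range, with replicate 3 at 61.5 CPM and the others at 74.3 to 76.2 CPM. Col5a3 in AJ-F1 WT hearts had a gap of 0.832 of the range, with replicate 1 at 51.4 CPM and the others at 22.3 to 27.2 CPM. Col6a2 in BL6J WT hearts had a gap of 0.859 of the range, with replicate 4 at 123 CPM and the others at 70.6 to 77.9 CPM. Col1a2 and Col6a2 were not called between BL6J KO and BL6J WT hearts, nor Col5a3 between AJ-F1 KO and AJ-F1 WT hearts.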

How the results depend on the processing

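Scaling by DESeq2 size factors or the upper quartile and a filter of 1 CPM in 3 libraries kept every collagen call; with no filter, Col22a1 was added as lower in AJ-F1 and Col11a1 as higher in CAST-F1 hearts. With DESeq2, 1 collagen was lower in CAST-F1 hearts, 1 differed in response between AJ-F1 and BL6J, 1 between CAST-F1 and AJ-F1, and 1 between CAST-F1 WT and BL6J WT hearts. With each background fitted alone, AJ-F1 hearts had 1 higher and 4 lower, and CAST-F1 hearts 4 higher and 2 lower, where 11% and 35.6% of all genes were called, against 28.5% and 20.3% in the fit of all libraries; the cause was not tested. With each gene's group mean of log2 CPM subtracted, same-numbered KO and WT libraries correlated at -0.229 to 0.0815 over all genes tested. These values cannot exclude a pairing by litter, as each background has few pairs and the labels do not name litters. With the replicate block, 10 were lower in AJ-F1 hearts (Col1a1 at edgeR adjusted p = 0.0665 and Col3a1 at 0.0628 were lost). Leaving out 1 library gave 1 to 3 higher and 6 to 14 lower in AJ-F1, 1 to 1 higher and 0 to 1 lower in BL6J, and 1 to 3 higher and 0 to 2 lower in CAST-F1 hearts; 0 to 7 differed between AJ-F1 WT and BL6J WT hearts, 0 to 1 between CAST-F1 WT and AJ-F1 WT, 0 to 1 between CAST-F1 WT and BL6J WT, and 0 to 0 in each response.

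Over the 27 tested collagens and all settings, no called value changed sign; signs that turned were of uncalled values, given here for the named genes. Col15a1, BL6J KO over WT, was -0.015 with size factors, -0.0034 with the upper quartile, -0.011 with no filter, -0.0096 with the 1 CPM filter, -0.014 with DESeq2, -0.013 fitted alone and -0.14 to 0.17 with a library left out. Col1a1, CAST-F1 KO over WT, was 0.030 with the replicate block and -0.26 to 0.49 with a library left out. With a library left out, the BL6J range was -0.067 to 0.53 for Col11a2 and -0.22 to 0.084 for Col6a2. The CAST-F1 range was -0.26 to 0.41 for Col15a1, -0.36 to 0.33 for Col3a1, -0.68 to 0.057 for Col4a3, -0.52 to 0.076 for Col5a1, -0.26 to 0.21 for Col5a2, -0.53 to 0.010 for Col6a1, -0.43 to 0.29 for Col6a2 and -0.083 to 0.49 for Col6a3, most of them turning without CAST-F1 WT replicate 3. Depth limits Col7a1 and the 11 untested collagens. It also limits other tested collagens with few reads, such as Col12a1 and Col13a1, at 2 to 17 and 2 to 14 reads in a library.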
